A study of Mus musculus with 12 samples.

Results

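RNA from 8 subcutaneous tumors of the KCip53-1 line was compared: 4 from mice given doxycycline (dox) throughout tumor growth, called plus-dox, and 4 from mice never given it, called no-dox. They are 8 of the 12 tumors of the series, the remaining 4 having been taken off dox, and the genes compared are those with a mean RPKM (read density scaled to exonic length and mapped reads) above 0.25 over the 8 tumors. That rule kept 14543 of 22630 genes, of which 14509 had enough reads for the test. At the limit, Sele lay just inside with a mean of 0.2502 RPKM, and Dapl1 just outside with 0.25. KCip53-1 cells were sorted for the dsRed reporter from a pancreatic tumor of a mouse carrying Ptf1a-Cre, which acts in pancreas cells, a dox-inducible TREp53R270H transgene and the R26 rtTa transactivator, so all groups share this 1 line, its other alleles and its transgene. Hosts were immunocompromised NSG mice of 8 to 10 weeks, which lack T, B and NK cells but keep macrophages and neutrophils. Plus-dox mice drank dox at 0.2 g/l for 36 days, no-dox mice for 0 days, and off-dox mice for 33 days followed by 3 days without it.

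Dox binds rtTa, which then switches on the TRE promoter, so that p53R270H and dsRed are made while dox is given. Wild-type p53 is a transcription factor that switches on genes for cell cycle arrest, apoptosis and repair. A missense change in its DNA-binding domain removes most of this activity, and such mutant proteins are known for gained effects on invasion, receptor signaling and metabolism. The labels and methods set several limits on the model: the cells are 1 line, dox had been present in their culture before injection, dsRed varied between cells of plus-dox tumors, and the study's PCR found no wild-type p53 allele in the line. Tumors were sequenced whole, with host stroma, so fewer cells of a type and less RNA per cell cannot be told apart. Mice bore tumors in pairs, and which ones shared a host is not given in the labels, so p-values may be too small.

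The codon that the transgene changes lies in exon 8 of 11 of Trp53 in the mm9 genome, at chr11:69403109-69403111 on the plus strand. It is shown because a coding read of Trp53 outside this codon looks alike whether it came from the endogenous gene or from the transgene's cDNA. The stretch chr11:69403075-69403156, in the exon chr11:69403075-69403211, reads in the reference as below, with codon 270 of the 390-residue protein in capitals (residues counted from the start codon), and the transgene carries R270H.
Trp53 exon stretch: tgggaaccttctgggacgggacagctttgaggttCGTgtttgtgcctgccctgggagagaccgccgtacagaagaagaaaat

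Trp53 (chr11:69393861-69405375) did not separate the groups. In no-dox tumors 1 to 4 it stood at 48.2, 57.4, 40.1 and 45.2 RPKM, and in plus-dox tumors 1 to 4 at 49.8, 56.0, 40.4 and 47.9 RPKM. The ranges lie one within the other. The log2 fold change was 0.04 (SE 0.11, edgeR adjusted p = 0.89), and an exact two-sided permutation test of the 4 against 4 tumors gave p = 0.686. Its sign turned without plus-dox 2, where the log2 fold change was -0.05. Trp53 had been planned as a check of the labels, and its count showed no clear rise with dox. Endogenous and transgenic messages fall in this 1 count, so the message of the transgene was not measured apart. The group names are those of the labels. The off-dox tumors had 44.0 ± 1.72 RPKM (SD, n = 4).

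Genes that wild-type p53 switches on showed no common direction. Of 30 such genes tested, 16 had a log2 fold change above 0 and 14 below, where 48.3% and 51.7% of all genes did so, with a median of 0.01 against -0.01 over all genes. Only 1 reached an unadjusted p under 0.05 as higher and 4 as lower, against 8.04% and 6.29% of all genes. Cdkn1a, the cell cycle inhibitor p21, was at 21.3, 23.9, 25.0 and 25.1 RPKM in no-dox tumors and 22.4, 39.3, 36.2 and 24.0 in plus-dox tumors. Plus-dox 2 and 3 were therefore above every no-dox tumor, and plus-dox 1 and 4 were within their range (log2 fold change 0.37, SE 0.20, edgeR adjusted p = 0.42; 0.23 without plus-dox 2). Mdm2, the ubiquitin ligase that degrades p53, overlapped fully between groups, at 23.6 to 35.4 RPKM without dox and 22.7 to 32.6 with it.

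Zmat3, which encodes an RNA-binding protein, was the higher gene. Its 4 plus-dox values of 3.81, 4.40, 3.96 and 3.94 RPKM lay above the no-dox values of 2.84, 3.12, 2.76 and 3.03 RPKM (log2 fold change 0.47, SE 0.11, unadjusted p = 0.0012, edgeR adjusted p = 0.32). Perp, a desmosomal protein, lay lower in all 4 plus-dox tumors, at 38.9 to 57.6 RPKM against 65.8 to 73.1 RPKM (log2 fold change -0.57, SE 0.20). Ei24, an endoplasmic reticulum protein of autophagy, was at 26.9 to 34.7 RPKM with dox and 34.5 to 43.5 RPKM without, with plus-dox 1 inside the no-dox range. Thbs1, which encodes the matrix protein thrombospondin 1, was at 58.7, 52.9, 56.9 and 64.9 RPKM in no-dox tumors and 74.7, 63.3, 98.3 and 65.7 RPKM in plus-dox tumors. A single overlap, of plus-dox 2 with no-dox 4, kept its groups from separating (log2 fold change 0.39, SE 0.18, edgeR adjusted p = 0.37; 0.20 without plus-dox 3).

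**Figure D1:**
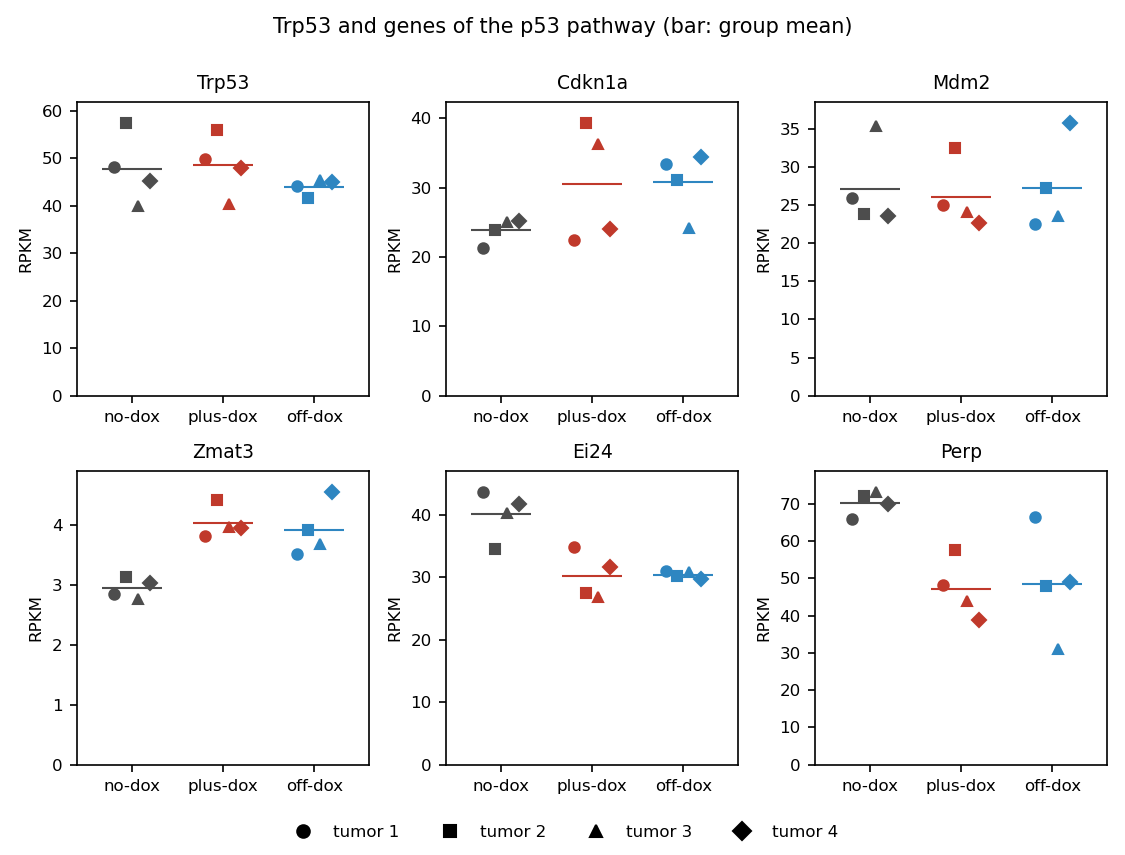
RPKM of Trp53 and 5 genes of its pathway in each tumor (vertical axes, RPKM) by group; symbols mark tumors 1 to 4 and bars the group mean. Trp53 and Mdm2 overlap between groups, Zmat3 is above the no-dox tumors in all 4 plus-dox tumors, and Perp is below them.

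Among the 17 tested members of the p53 family and its regulators, the median log2 fold change was -0.04. At an unadjusted p under 0.05, 1 gene was higher and 2 were lower, beside 8.04% and 6.29% of all genes. Mdm4, which holds p53 inactive, was at 8.72 to 12.1 RPKM without dox and 11.3 to 16.6 RPKM with it (log2 fold change 0.43, SE 0.15). Cdkn2a, the locus of the p53-stabilizing protein Arf, was at 172 to 294 RPKM without dox and 136 to 185 RPKM with it (log2 fold change -0.41, SE 0.18). Kat5, an acetyltransferase that acts on p53, was lower in all 4 plus-dox tumors, at 12.7 to 16.2 RPKM against 16.5 to 18.6 RPKM. None of these passed an adjusted test.

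No gene met the study's limits (adjusted p under 0.1, over 1.5-fold, length over 250 bp) in edgeR's quasi-likelihood test, which called 0% of genes in each direction; the smallest Benjamini-Hochberg adjusted p was 0.32. At an unadjusted p under 0.05, 1167 genes were higher in plus-dox tumors (8.04%) and 913 lower (6.29%), and 32 genes had p under 0.001. By DESeq2 with moderated fold changes, the kind of fit the study used, 84 genes were called higher (0.579%) and 6 lower (0.0414%), and limma-voom with sample weights called 96 higher (0.662%) and 16 lower (0.11%). The tumors of 639 genes (4.4%) lay above the no-dox tumors without overlap and those of 754 genes (5.2%) below. Counted reads ran from 20784597 to 33137609 per tumor.

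The plus-dox tumors differed among themselves about as much as from the no-dox tumors. Over the genes tested, pairs of no-dox tumors differed by a root mean square of 0.56 in log2 CPM (counts scaled to library size), pairs of plus-dox tumors by 0.75, and pairs across groups by 0.70. Plus-dox 2 stood apart at a mean of 1.10 from the other 7 tumors, which had means of 0.56 to 0.69. It held 317 genes more than 2-fold above all 7 others and 795 more than 2-fold below, against at most 35 and 103 in any other tumor. Results are therefore given without it below. The share of mapped reads that fell in counted exons was 88.4 to 89.4% in no-dox tumors and 82.2 to 87.1% in plus-dox tumors, so that share and the group do not overlap. With the share as a covariate, unadjusted p was under 0.05 for 282 genes higher (1.94%) and 52 lower (0.358%), and none of the 39 gene lists had more than 5 genes higher or 1 lower. The part of the share in the gene values cannot be told apart from that of dox.

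**Figure D2:**
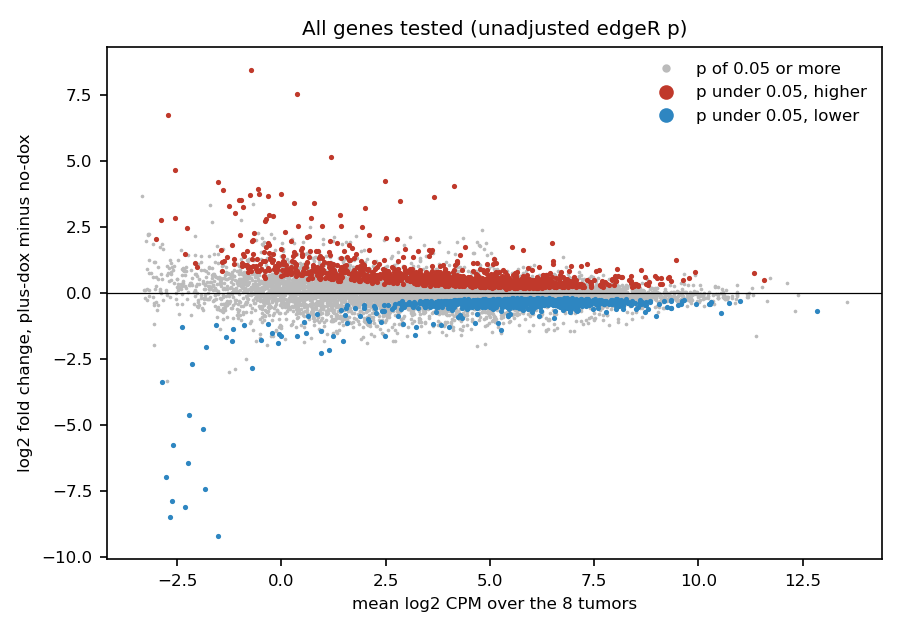
Log2 fold change of plus-dox over no-dox tumors (vertical axis) against mean log2 CPM over the 8 tumors (horizontal axis) for all 14509 genes tested; colored points have an unadjusted edgeR p under 0.05. There are 1167 such genes above 0 and 913 below, and none has an adjusted p under 0.1.

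Of genes whose groups did not overlap, the 12 with the smallest p among the higher ones were taken, and the same number among the lower ones. The higher 12 had log2 fold changes of 0.41 to 1.53 with unadjusted p of 8.4e-05 to 0.00055, an edgeR adjusted p of 0.32 each, and moderated DESeq2 adjusted p of 0.0026 to 0.014. Gal3st3 (chr19:5298331-5308739), a galactose sulfotransferase, was at 0.207, 0.123, 0.143 and 0.134 RPKM in no-dox tumors and 0.415, 0.403, 0.460 and 0.479 RPKM in plus-dox tumors. These are low levels, and the groups stayed well apart. Nlgn2 (chr11:69636625-69648351), the synaptic adhesion protein neuroligin 2, rests on higher counts, at 11.6 to 13.8 RPKM without dox and 15.4 to 18.9 RPKM with it (log2 fold change 0.52, SE 0.10).

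Notch3 (chr17:32257838-32303797), a receptor of smooth muscle cells and pericytes, was at 1.66, 1.21, 1.51 and 1.06 RPKM without dox and 1.94, 3.60, 3.14 and 3.53 RPKM with it. Plus-dox 1 was the closest to the no-dox tumors, as it was for Nav1, a microtubule guidance protein at 3.45 to 4.49 RPKM without dox and 4.95 to 7.60 RPKM with it. Slfn4, a Schlafen family gene of myeloid cells, was at 0.951 to 1.81 RPKM against 3.66 to 4.79 RPKM, and Klri2, a lectin-like receptor of NK cells, at 0.121 to 0.213 against 0.327 to 0.622 RPKM. Both belong to clusters of near copies, whose shared stretches make their reads less certain. Mapkbp1, a scaffold of JNK signaling, had the smallest change of the 12, from 2.86 to 3.19 up to 3.73 to 4.25 RPKM, and Prickle1, of planar cell polarity, had 3.51 to 4.73 against 5.25 to 6.55 RPKM.

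The other four were Kcnq1ot1, a long noncoding RNA at 0.405 to 0.507 against 0.581 to 1.22 RPKM, and the little-studied 4932411L15, G530011O06Rik and 1700001L05Rik. Kcnq1ot1 runs antisense to Kcnq1, and the libraries do not keep strand, so reads of the overlap cannot be told apart. In the off-dox tumors, Gal3st3 had 0.322 ± 0.0527 RPKM, Nlgn2 17.7 ± 1.48, Notch3 2.40 ± 0.675 and Slfn4 5.18 ± 2.15 (SD, n = 4). Those means sit above the no-dox ranges, but the genes were picked for no-dox values below every plus-dox value. The comparison with off-dox tumors is therefore no independent result. Off-dox values of the other higher genes are not given here.

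The 12 lower genes had log2 fold changes of -0.36 to -9.18 with unadjusted p of 0.00035 to 0.0021 and an edgeR adjusted p of 0.32 each; 11 of them had a moderated DESeq2 adjusted p under 0.1, and Krt71 had 0.18. Several are abundant housekeeping genes with small, even differences. Ndufv1, a subunit of respiratory complex I, was at 67.0, 69.1, 58.6 and 54.6 RPKM in no-dox tumors and 53.4, 44.3, 40.8 and 46.6 RPKM in plus-dox tumors. Tfrc, the transferrin receptor that takes up iron, was at 24.1 to 29.8 RPKM against 15.5 to 18.6 RPKM (log2 fold change -0.62, SE 0.15). Xrcc5, the Ku80 subunit of DNA end joining, was at 17.2 to 21.5 against 11.3 to 15.2 RPKM, and Adh5, which oxidizes formaldehyde and glutathione adducts, at 67.9 to 74.7 against 46.4 to 59.4 RPKM.

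Zmat2, a splicing protein, Hn1l, Dhx32, a helicase-like protein, Slc39a11, a zinc transporter, and Spcs2, a subunit of the signal peptidase, made up most of the rest, with log2 fold changes of -0.36, -0.41, -0.45, -0.60 and -0.41. Jakmip1, a microtubule-binding protein, was low in all tumors, at 0.251 to 0.906 RPKM without dox and 0.0128 to 0.137 RPKM with it. Krt71 and Krt73, keratins of the hair follicle's inner root sheath, were the extremes of fold change, highest in no-dox 1 and low elsewhere. With each tumor left out, the log2 fold change lay at -10.8 to -5.6 for Krt71 and -6.4 to -2.9 for Krt73. Krt71 was at 13.4 RPKM in no-dox 1, at 0.0306 to 0.72 RPKM in the other no-dox tumors, and at 0.0193 RPKM in plus-dox 1 and 0 in the remaining plus-dox tumors. Krt73 was at 2.11 RPKM in no-dox 1 and at most 0.238 RPKM elsewhere. Krt73 therefore passed the 0.25 RPKM limit only through no-dox 1, and Krt71 and Jakmip1 only through no-dox tumors.

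**Figure D3:**
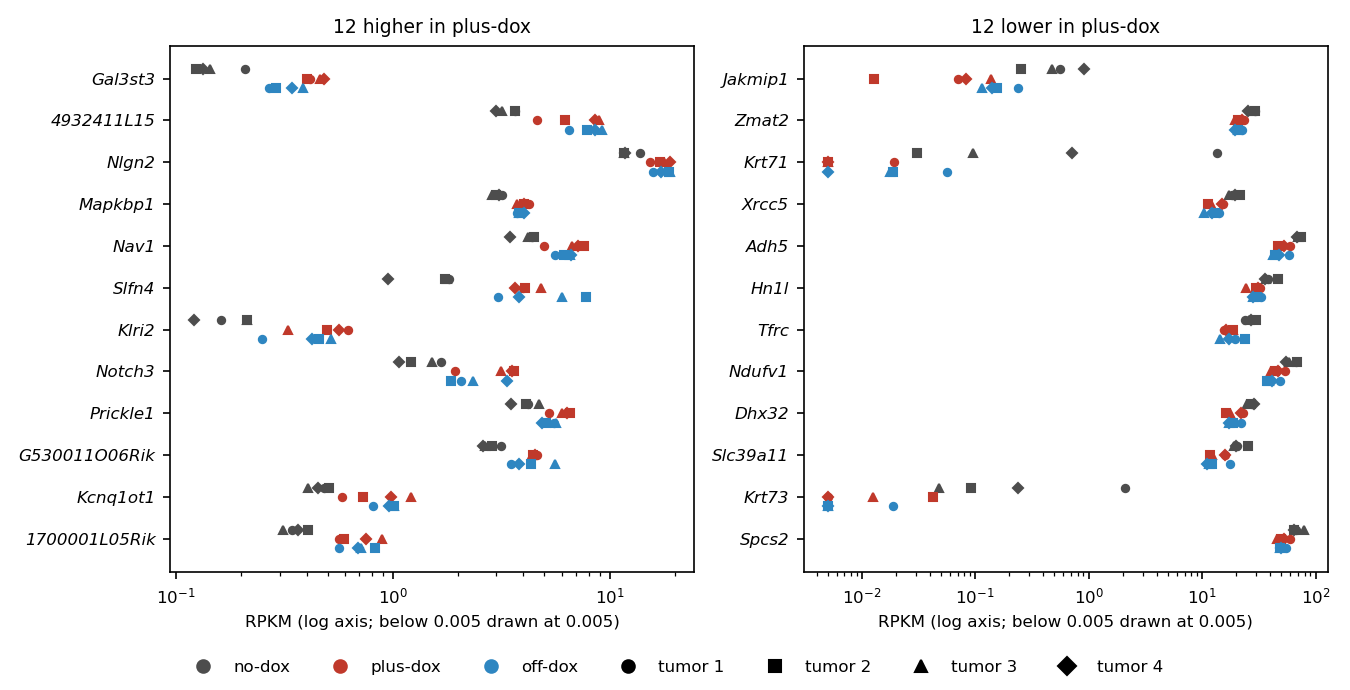
RPKM (horizontal log axes, values under 0.005 drawn at 0.005) of the 12 higher and 12 lower genes with the smallest unadjusted p among genes whose groups do not overlap; colors mark groups and symbols tumors 1 to 4. Most lower genes differ by little at high levels, while Krt71 and Krt73 spread widely among the no-dox tumors.

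Longer genes lay higher and shorter genes lower in plus-dox tumors. The median exonic length was 2682 bases over all genes, 4106 among genes higher at an unadjusted p under 0.05 and 1949 among those lower. In the fifth of genes with the longest exons (median 6006 bases) the median log2 fold change was 0.14, with 519 genes higher and 24 lower at that p. In the fifth with the shortest (median 1007 bases) it was -0.11, with 104 higher and 254 lower. With the counted share as a covariate these medians were 0.03 and -0.06, and without plus-dox 2 they were 0.15 and -0.11. Genes lower in plus-dox tumors were also the more abundant, with a median of 23.3 RPKM against 3.99 RPKM for the higher ones. Length moves with the gene lists below, and its part in them was not tested: the respiratory chain list has a median of 758 bases, and the basement membrane list 6236.

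Genes of mitochondrial oxidation lay lower together. Mitochondria break down branched chain amino acids and fatty acids to acetyl and succinyl groups, burn them in the TCA cycle and pass the electrons to the respiratory chain. Of 32 tested genes of branched chain amino acid degradation, 29 had a log2 fold change below 0, with a median of -0.28. At an unadjusted p under 0.05, 16 were lower and none was higher, beside 6.29% and 8.04% of all genes. The groups of 12 did not overlap, all lower, where 5.2% of all genes did so. Bckdha, the E1 subunit of the dehydrogenase that commits these amino acids to oxidation, was at 37.7, 39.6, 36.3 and 36.2 RPKM in no-dox tumors and 32.3, 22.8, 22.7 and 26.4 RPKM in plus-dox tumors (log2 fold change -0.52, SE 0.14, edgeR adjusted p = 0.32). Plus-dox 1 was again nearest to the no-dox group.

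Oxct1, which activates ketone bodies, was at 38.6 to 49.9 RPKM without dox and 31.0 to 38.8 RPKM with it, where plus-dox 4 and no-dox 4 met on the RPKM scale. Bcat2, the mitochondrial transaminase of the first step, was at 20.5 to 28.3 against 15.2 to 24.9 RPKM (log2 fold change -0.39, SE 0.15). Aldh2, the most abundant member, differed by little on average (log2 fold change -0.05), with 110 to 189 RPKM without dox and 98.5 to 228 RPKM with it, the highest value being that of plus-dox 2. Without that tumor, 12 genes of the list were lower and the median was -0.28. With the counted share as a covariate, 1 was lower and the median was -0.16.

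Fatty acid oxidation had 13 of 23 genes lower and 1 higher at that p, beside 6.29% and 8.04% of all genes, with a median of -0.30. Without plus-dox 2, 7 were lower, and with the counted share as a covariate 0 were lower and the median was -0.14. Hadhb and Echs1, enzymes of the beta-oxidation spiral, were at 49.7 to 57.9 against 35.3 to 50.1 RPKM and at 82.0 to 105 against 61.3 to 88.1 RPKM. The one higher gene was Cpt1c, a brain-type carnitine palmitoyltransferase, at 3.12 to 3.62 RPKM without dox and 4.03 to 6.04 RPKM with it, with no overlap. In the TCA cycle list 10 of 35 were lower and none higher, with a median of -0.15. With the covariate 0 were lower and the median was -0.01, and without plus-dox 2 there were 11 lower. Mdh1, the cytosolic malate dehydrogenase, was at 80.7 to 93.4 against 60.2 to 79.7 RPKM, and Dld, the E3 subunit shared by the keto acid dehydrogenases, at 45.5 to 51.3 against 36.1 to 43.5 RPKM.

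All 45 genes of the respiratory chain and ATP synthase had a log2 fold change below 0, with a narrow range of -0.42 to -0.02 and a median of -0.20. Of these, 11 were lower at an unadjusted p under 0.05 and 10 lay lower without overlap, beside 6.29% and 5.2% of all genes. Below 0 were 51.7% of all genes. Uqcrc2, a core subunit of complex III, was at 124 to 148 RPKM without dox and 99.8 to 126 RPKM with it, and Atp5b, of the ATP synthase, at 475 to 586 against 349 to 511 RPKM. The mitochondrial ribosome was alike, with 38 of 39 genes below 0, 10 lower at that p and a median of -0.21. For the cytosolic ribosome the median was -0.07 over 46 genes and none had an unadjusted p under 0.05. Without plus-dox 2, 10 genes were lower in the respiratory chain (median -0.21) and 5 in the mitochondrial ribosome (median -0.20), and with the counted share as a covariate the medians were -0.09 and -0.12, where no gene of either list was lower at that p.

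The pentose phosphate pathway, which makes NADPH and ribose, had all 10 genes below 0, with 3 lower at that p. Taldo1, its transaldolase, was at 115, 137, 111 and 108 RPKM in no-dox tumors and 100.07, 81.0, 72.8 and 84.1 RPKM in plus-dox tumors. In glycolysis 3 of 27 were higher and 2 lower, near the shares of all genes (8.04% and 6.29%), and 0 were either with the covariate. Eno2, a neuronal enolase, was at 3.38 to 5.04 against 4.80 to 11.04 RPKM, and Akr1a1, an aldehyde reductase counted in that list, at 487 to 563 against 345 to 446 RPKM with no overlap. The list of fatty acid synthesis and the mevalonate pathway had 23 of 27 genes below 0 but 1 lower at that p. That was Cyp51, a sterol demethylase, at 20.9 to 34.1 against 13.8 to 23.2 RPKM. Its median was -0.25 with all 8 tumors, -0.33 without plus-dox 2 (12 genes lower) and 0.03 with the counted share as a covariate (0 lower).

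Several lists of extracellular matrix genes held more higher genes than the 8.04% of all genes, and others did not. Collagens of fibrils and beaded filaments, the load-bearing matrix of stroma, had a median log2 fold change of 0.59 over 14 genes, 7 of them higher at an unadjusted p under 0.05 and none lower. Col1a1, a chain of type I collagen, was at 346, 381, 453 and 306 RPKM in no-dox tumors and 444, 790, 695 and 552 RPKM in plus-dox tumors (log2 fold change 0.76, SE 0.21, edgeR adjusted p = 0.32). Plus-dox 1 fell inside the no-dox range and the other 3 were above it. Col3a1, the type III chain, was at 242 to 671 RPKM without dox and at 412, 1096, 589 and 599.5 RPKM in plus-dox tumors 1 to 4. Without plus-dox 2, 6 collagens were higher and the median was 0.42, and with the counted share as a covariate 1 was higher and it was 0.53. Collagen-modifying enzymes had 4 of 19 higher, 0 without plus-dox 2. Matrix metalloproteinases and TIMPs had 1 of 19 higher, with a median of 0.26 that was 0.04 without plus-dox 2, and plasminogen activation had 1 of 9, with a median of 0.14 that was -0.04 without it.

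Basement membrane genes had 8 of 18 higher at that p, 4 without plus-dox 2 and 2 with the counted share as a covariate, beside 8.04% of all genes. Hspg2, the heparan sulfate proteoglycan perlecan, was at 19.6, 21.0, 20.4 and 22.3 RPKM without dox and 26.1, 29.5, 34.7 and 36.0 RPKM with it (log2 fold change 0.61, SE 0.13). Its groups did not overlap, nor did those of Col4a2, a type IV collagen chain, at 25.0 to 28.3 against 33.2 to 47.6 RPKM. Elastic fiber genes had 6 of 19 higher, 2 without plus-dox 2 and 5 with the covariate. Their smallest p was that of Fbn1, the microfibril protein fibrillin 1, at 19.9 to 25.9 against 26.7 to 41.6 RPKM. When plus-dox 1 was left out, Fbn1 was 1 of 3 genes with an edgeR adjusted p under 0.1 (0.074), beside Nav1 and 4932411L15 (0.073 each).

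Ltbp2, a microfibril protein, was at 7.47 to 15.9 against 20.6 to 27.4 RPKM, and Lox, which crosslinks collagen and elastin, at 29.4 to 44.4 against 34.2 to 93.2 RPKM. Proteoglycans and matricellular genes had 6 of 24 higher and 1 lower, beside 8.04% and 6.29% of all genes. Without plus-dox 2, 3 were higher. Bgn, the proteoglycan biglycan, was at 227 to 290 RPKM without dox and at 341, 671, 481 and 366 RPKM with it, with no overlap. Spp1, the matricellular protein osteopontin and the most abundant member of that list, went the other way, at 3917 to 5502 RPKM without dox against 1824 to 4393 RPKM with it. Acan, the cartilage proteoglycan aggrecan, was at 31.4 RPKM in plus-dox 2 and at most 2.13 RPKM in the other 7 tumors. Its groups did not overlap, and its log2 fold change was 3.63, or 1.04 without plus-dox 2; among off-dox tumors it reached 7.96 RPKM in off-dox 4.

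Integrins and the focal adhesion proteins behind them link cells to the matrix. Of 24 such genes 5 were higher at that p, beside 8.04% of all genes, with 3 without plus-dox 2 and 2 with the counted share as a covariate. Among the 5 were Tln2 and Tln1, the talins that activate integrins, at 2.30 to 3.16 against 3.85 to 5.31 RPKM and 26.7 to 32.3 against 34.6 to 41.3 RPKM.

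Phosphodiesterases, which break down cAMP and cGMP, had 8 of 16 genes higher at that p, beside 8.04% of all genes. Their median was 0.60. That was the highest median of the lists with all 8 tumors, but collagens were above it without plus-dox 2 (0.42 against 0.32) and with the counted share as a covariate (0.53 against 0.42). Pde1b was at 0.849 to 1.66 against 1.65 to 2.72 RPKM and Pde4a at 0.868 to 1.15 against 1.26 to 2.11 RPKM. The most abundant, Pde3b, was at 8.78 to 10.2 against 7.67 to 9.38 RPKM, a higher level than those of Pde1b and Pde4a. Without plus-dox 2, 6 were higher, and with the covariate none was.

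Growth factor ligands and receptors had 6 of 32 higher at that p, and 2 both without plus-dox 2 and with the covariate, beside 8.04% of all genes. Pdgfrb, a receptor of fibroblasts and pericytes, was at 13.9, 12.8, 12.9 and 12.9 RPKM in no-dox tumors and 13.0, 29.3, 18.8 and 22.3 RPKM in plus-dox tumors. Plus-dox 1 was within the very narrow no-dox range and the other 3 were above it (log2 fold change 0.68, SE 0.22, edgeR adjusted p = 0.33; exact p = 0.114). The insulin and IGF list had 4 of 21 higher, and Irs1, the insulin receptor substrate, was higher without overlap, at 2.26 to 2.94 against 3.15 to 4.72 RPKM. Igf2, an imprinted growth factor, was at 4.71 and 2.71 RPKM in plus-dox 3 and 4 and at most 0.509 RPKM elsewhere. The median over ligands and receptors was 0.27, and 0.05 without plus-dox 2.

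**Figure D4:**
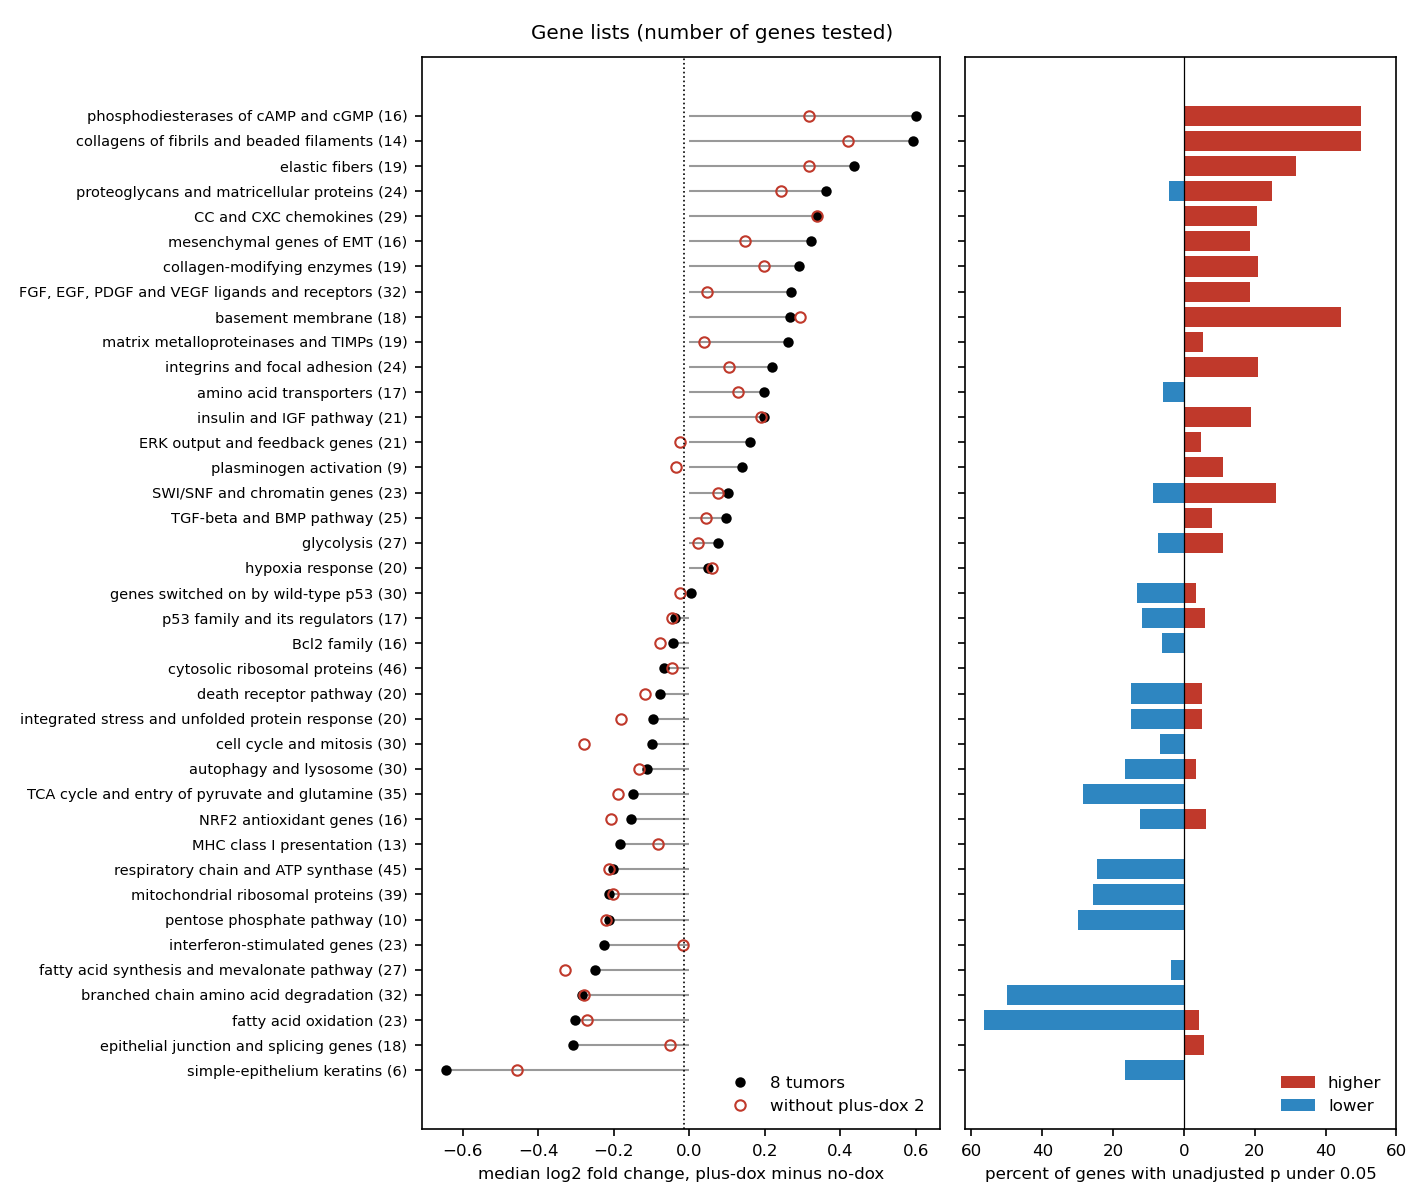
Left, the median log2 fold change of plus-dox over no-dox (horizontal axis) of each of 39 gene lists with all 8 tumors (filled) and without plus-dox 2 (open), the dotted line marking the median of all genes, -0.01; right, the percent of each list's tested genes with an unadjusted edgeR p under 0.05, higher or lower. Phosphodiesterases (0.60) and collagens (0.59) stand at the top, and several lists move toward 0 without plus-dox 2.

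In epithelial-mesenchymal transition (EMT), epithelial cells give up cadherin junctions and keratins and gain mesenchymal genes. Of 16 mesenchymal genes 14 were above 0, with a median of 0.32, or 0.15 without plus-dox 2. At an unadjusted p under 0.05, 3 were higher, beside 8.04% of all genes. Zeb1, a repressor of Cdh1, was at 9.65, 8.29, 8.22 and 9.87 RPKM without dox and 10.7, 12.6, 11.3 and 12.6 RPKM with it (log2 fold change 0.40, SE 0.12, edgeR adjusted p = 0.32). An exact test gave the smallest p that 70 arrangements allow, 0.029, and 0.286 after adjustment over the 10 genes tested so. Twist1 overlapped, at 8.14 to 13.3 against 10.6 to 16.7 RPKM. Vim, the mesenchymal filament vimentin, was at 731 to 1015 RPKM without dox and at 746, 1756, 857 and 860 RPKM with it, and without plus-dox 2 its log2 fold change turned from 0.33 to -0.04.

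The epithelial side was lower in the keratins. All 6 simple-epithelium keratins were below 0, with a median of -0.65. At an unadjusted p under 0.05, 1 was lower, beside 6.29% of all genes. Krt8 (chr15:101827142-101834773) was at 830, 966, 935 and 972 RPKM in no-dox tumors and 588, 532, 579 and 504 RPKM in plus-dox tumors (log2 fold change -0.74, SE 0.22, edgeR adjusted p = 0.32; moderated DESeq2 adjusted p = 0.091). Its groups were far apart, and the off-dox tumors had 544 ± 202 RPKM (SD, n = 4). Krt18, its partner, did not overlap either, at 738 to 947 against 498 to 647 RPKM, while Krt19 did, at 230 to 352 against 170 to 256 RPKM.

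Cdh1, the epithelial cadherin, was at 121, 183, 90.6 and 191 RPKM without dox and at 111, 22.1, 122 and 104 RPKM with it. Only plus-dox 2 was below the no-dox range (log2 fold change -0.69, SE 0.50; -0.37 without that tumor). Epcam did not overlap, at 166 to 388 against 7.76 to 159 RPKM, the 7.76 again being plus-dox 2. Of 18 epithelial junction and splicing genes, 14 were below 0, beside 51.7% of all genes. Their median was -0.31, or -0.05 without plus-dox 2. Epcam was the only 1 of them lower without overlap, beside 5.2% of all genes. At an unadjusted p under 0.05, none was lower and 1 was higher, beside 6.29% and 8.04% of all genes. The 1 gene higher at that p was Marveld2, the tight junction protein tricellulin. It was at 0.622 and 0.986 RPKM in plus-dox 3 and 4 and at most 0.183 RPKM elsewhere. Marveld2 therefore passed the 0.25 RPKM limit only through plus-dox 3 and 4.

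Proliferation genes gave few small p-values. Mki67, the proliferation marker, was at 7.85, 11.8, 7.36 and 6.59 RPKM without dox and 10.1, 9.40, 7.05 and 11.7 RPKM with it (exact p = 0.429). At an unadjusted p under 0.05, none of 30 cell cycle genes was higher and 2 were lower, beside 8.04% and 6.29% of all genes. The 2 were Mcm7 and Tyms, which serve DNA replication, and 22 of the 30 were below 0. The median of the list was -0.10, or -0.28 without plus-dox 2 and 0.04 with the counted share as a covariate. In the death receptor pathway 3 of 20 were lower and 1 higher, beside the same 6.29% and 8.04% of all genes. Casp8, its initiator caspase, was at 28.9 to 31.2 against 22.7 to 24.8 RPKM, and its adaptor Fadd at 5.45 to 7.09 against 4.08 to 5.25 RPKM, both without overlap. Cflar, the inhibitor of Casp8, was at 11.6 to 15.3 against 15.4 to 18.9 RPKM. Bok, a pro-apoptotic Bcl2 relative, was lower in all 4, at 96.9 to 113 against 46.8 to 92.3 RPKM.

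Stress and immune lists differed in their share of small p-values. None of 23 interferon-stimulated genes, 13 genes of MHC class I presentation or 20 hypoxia genes had an unadjusted p under 0.05, and their medians were -0.23, -0.18 and 0.05, with 16, 11 and 7 genes below 0. Without plus-dox 2 the first was -0.02 and the second -0.08. Of 16 NRF2 antioxidant genes 15 were below 0, with 2 lower and 1 higher at that p, beside 6.29% and 8.04% of all genes. Of 20 genes of the stress responses 3 were lower, among them Pdia4, a folding enzyme, at 84.5 to 110 against 67.3 to 74.4 RPKM. The 1 higher gene, the hormone Fgf21, was at 0.125 to 0.477 against 0.416 to 1.68 RPKM. Prdx1, an NRF2-driven peroxidase, was at 805 to 984 against 520 to 846 RPKM. Chemokines had 6 of 29 higher at that p, beside 8.04% of all genes, and a median of 0.34. With the counted share as a covariate 1 was higher and the median was -0.03. Among the 6 were Ccl5, which attracts lymphocytes and monocytes, at 3.76 to 6.32 against 5.94 to 9.34 RPKM, and Cxcl2, which attracts neutrophils, at 0.450 to 0.665 against 0.798 to 2.22 RPKM.

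Chromatin genes had 6 of 23 higher and 2 lower at that p, beside 8.04% and 6.29% of all genes, and 1 higher and 0 lower with the counted share as a covariate. Mll2, a histone methyltransferase, was at 3.86 to 5.09 against 5.57 to 8.20 RPKM. Trrap, a scaffold of acetyltransferase complexes, was at 6.45 to 8.15 RPKM without dox and at 9.21, 30.0, 11.2 and 10.8 RPKM with it. Autophagy and lysosome genes had 5 of 30 lower and 1 higher, and 2 each without plus-dox 2. The higher one of all 8 tumors was Ulk2, a kinase that starts autophagy, at 8.65 to 10.6 against 10.2 to 12.3 RPKM.

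Markers of other cell types moved along with several of these groups. Summed over 16 epithelial markers, the level was 2408 to 3342 RPKM in no-dox tumors and 1370 to 2166 RPKM in plus-dox tumors, without overlap. Of 15 tested, 13 were below 0, beside 51.7% of all genes. Only 1 was lower at an unadjusted p under 0.05 and none was higher, beside 6.29% and 8.04% of all genes. The epithelial list shares Krt8, Krt18, Krt19, Cdh1 and Epcam with the results above. Over 14 fibroblast markers the sum was 1297 to 2372 against 1846 to 3494 RPKM, with 5 higher at an unadjusted p under 0.05. Over all genes 8.04% were higher at that p. The fibroblast list shares Col1a1, Col1a2, Pdgfrb and Postn with the results above. Endothelial markers had 7 of 13 higher, with sums of 68.0 to 101.6 against 88.2 to 229.7 RPKM. Of 11 pericyte and smooth muscle markers 4 were higher, with Notch3 among them and sums of 314 to 555 against 355 to 562 RPKM. No marker of these 4 lists was at 0 in all 8 tumors. The part of cell composition in the matrix, keratin and mitochondrial values was not tested.

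Neutrophil markers were higher at that p in 4 of 8, beside 8.04% of all genes. Their sums were 46.5 to 68.2 against 56.5 to 231 RPKM, the highest being plus-dox 2. Mmp9, a gelatinase counted in that list, reached 173 RPKM there, most of that tumor's sum. In the other 7 tumors Mmp9 was at 10.998 to 32.5 RPKM. T and NK markers summed to 4.62 to 9.47 against 10.0 to 19.4 RPKM, with 3 of 8 higher. Nkg7, a granule protein, was at 0.123 to 0.385 against 0.751 to 1.00 RPKM, and Cd3e, the defining T cell gene, did not exceed 0.149 RPKM in any tumor, in a host strain that lacks these cells. Macrophage markers overlapped, at 2114 to 3212 against 2517 to 3014 RPKM. Skeletal muscle markers summed to 17.6 to 239.5 against 176 to 547 RPKM. Epidermis and hair follicle markers were lower at that p in 5 of 8, beside 6.29% of all genes. Their sums were 22.6 to 58.1 against 10.9 to 26.2 RPKM. Krt14, of basal epidermis, was at 14.4 to 47.7 against 4.25 to 18.7 RPKM.

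The 4 plus-dox tumors were not alike. Plus-dox 2 had the lowest epithelial sum, 1370 RPKM, and the highest fibroblast and endothelial sums, 3494 and 230 RPKM. Dmbt1, Spink4 and Olfm4, secreted products of gut and pancreatic epithelium, were near 0 there, at 4.44, 1.10 and 0.0909 RPKM, against 254 to 861, 54.7 to 362 and 11.2 to 28.5 RPKM in the other plus-dox tumors. These genes were picked for their spread among the plus-dox tumors, and no such pick was made among the no-dox tumors. Their values are therefore no independent result on how far the plus-dox tumors differed.

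Plus-dox 3 and 4 shared another set. Xist, the noncoding RNA of X inactivation, was at 4.25 and 4.89 RPKM there and at most 0.0191 RPKM in the other 6 tumors. Mal2, of apical transport, was at 13.9 and 21.1 RPKM against at most 0.395 RPKM, and Cldn3, a tight junction claudin, at 10.5 and 13.2 RPKM against at most 2.29 RPKM. Y-linked Ddx3y was at 16.9 to 20.8 RPKM over all 8 tumors and did not mark the pair. In the off-dox tumors Xist, Mal2 and Cldn3 had 0.0287 ± 0.0202, 0.292 ± 0.200 and 0.665 ± 0.435 RPKM (SD, n = 4). Fat varied widely within both groups. Cfd, the adipocyte protease adipsin, was at 580, 23.3, 449 and 1.11 RPKM without dox and 254, 160, 1.68 and 321 RPKM with it. All 11 adipocyte markers tested had a log2 fold change below 0, beside 51.7% of all genes. None was lower at an unadjusted p under 0.05 and none lay lower without overlap, beside 6.29% and 5.2% of all genes. Mal2 and Cfd were likewise picked for their spread among the plus-dox tumors.

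**Figure D5:**
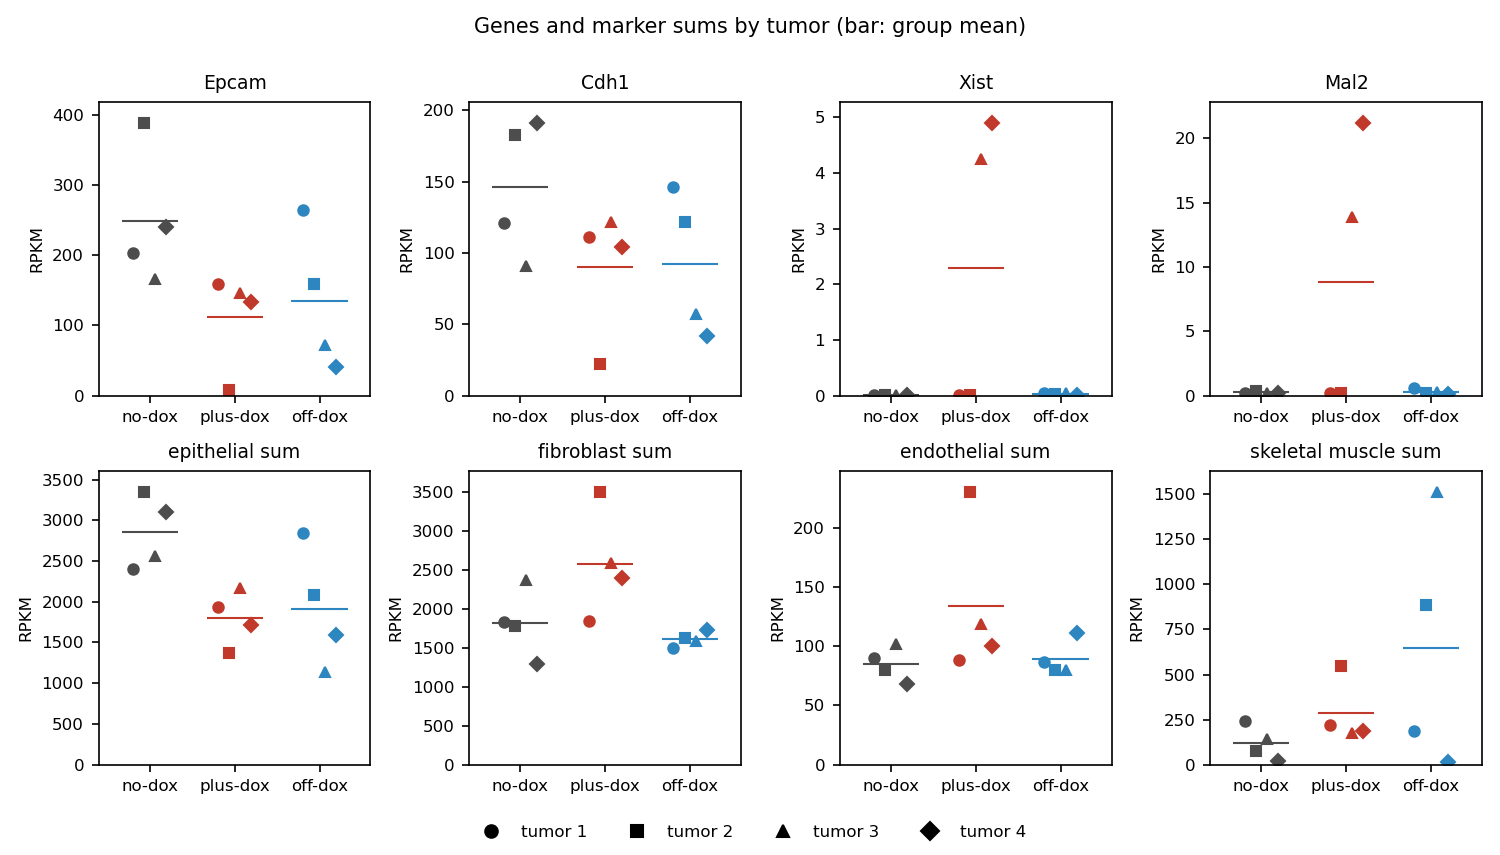
RPKM of Epcam, Cdh1, Xist and Mal2 and summed RPKM of 4 marker lists (vertical axes) in each no-dox, plus-dox and off-dox tumor; symbols mark tumors 1 to 4 and bars the group mean. Plus-dox 2 is lowest in Epcam (7.76 RPKM) and Cdh1 (22.1 RPKM), and Xist and Mal2 are above 1 RPKM in plus-dox 3 and 4 alone.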

How the data were processed

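The authors sequenced polyA-selected, unstranded libraries as short single-end reads. Per the labels' processing notes they used CASAVA 1.8.2, TopHat 1.4.1, Bowtie 0.12.8 and bedtools 2.16.2 with mm9. The deposited expected counts are the authors' coverage of unambiguous exonic spans in reads, and 58.2% of values were not whole; they were rounded. The deposited RPKM values are normalized by the authors for exonic length and mapped reads. Group and tumor number came from the labels. Genes with 10 or more counts over the 12 tumors were fitted in edgeR 4.0.16 (quasi-likelihood, TMM, all 3 groups sharing 1 dispersion; R 4.3.3), and p-values were adjusted over 17561 genes. DESeq2 1.42.0 and limma 3.58.1 were alternatives. Fold changes come from this fit, and RPKM gives levels. Non-overlap was judged on log2 CPM with a prior count of 2. The RPKM limit was set on the mean of the 8 tumors, so a gene high in only 1 group could pass through that group. Exact permutation tests (SciPy 1.17.1) were two-sided over 10 genes. The fit was also run on simulated counts, and its outcome is not given here. Named genes were: 10 chosen genes; the 12 smallest p per direction without overlap; the most abundant and smallest-p members of each list; the 8 most variable among plus-dox tumors; and Xist with Y-linked genes. Some further list members named beside these were chosen after their values were seen. Results on some genes are not reported here. Members and lists were chosen with earlier results of these data known. Of the lists' symbols, 20 matched under an older RefSeq synonym. Same-numbered tumors did not pair, and no batch is given in the labels. Depth of 20784597 to 33137609 counted reads makes values near 0.1 RPKM the least precise.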

Additional observations from a re-analysis of the deposited data

Results flagged for a closer look

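In groups of 4 tumors, 12 of 118 checked had 1 value far from the others, by Dixon's gap over range at the 95% level. For unselected values chance alone gives about 1 in 20. Some genes checked were picked from these data for spread or group separation, so the 12 flagged groups cannot be read against that rate. On the plus-dox side these were Cdh1 at 22.1 RPKM in plus-dox 2 (next 104.5), Olfm4 at 0.0909 RPKM in plus-dox 2 (next 11.2), Notch3 at 1.94 RPKM in plus-dox 1 (next 3.14), Cfd at 1.68 RPKM in plus-dox 3 (next 159.5) and Krt71 at 0.0193 RPKM in plus-dox 1, the others being at 0. On the no-dox side they were Pdgfrb at 12.8 RPKM in no-dox 2 (next 12.9), where the whole range is narrow, Nav1 at 3.45 and Slfn4 at 0.951 RPKM in no-dox 4 (next 4.37 and 1.73), Hn1l at 46.7 and Mal2 at 0.395 RPKM in no-dox 2 (next 36.3 and 0.223), the macrophage marker sum at 2114 RPKM in no-dox 4 (next 3007) and the Schwann cell marker sum at 82.2 RPKM in no-dox 3 (next 66.2).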

How the results depend on the processing

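Calls at the study's limits depended on the test: edgeR gave 0, DESeq2 128, DESeq2 with moderated fold changes 90 and limma-voom with sample weights 112, while the other normalization, filters, 8-tumor fit, replicate block, covariate and stricter adjusted p gave 0, and leaving out each tumor gave 0 to 3, the 3 without plus-dox 1. The cause was not tested. Genes at an unadjusted p under 0.05 numbered 282 higher and 52 lower with the counted share as a covariate, 1698 lower by limma-voom, and 829 to 1452 higher and 489 to 1340 lower with each tumor left out, fewest lower without plus-dox 3 (489) and plus-dox 4 (535). With the replicate block there were 923 higher and 831 lower; same-numbered tumors' deviations correlated at -0.42 to 0.08, so the numbers do not pair them. Non-overlap counts stayed within 1.5 times under RLE, the other prior count and RPKM. Trp53 (0.04) turned to -0.034 by limma-voom and lay at -0.046 to 0.12 with each tumor left out, -0.024 without no-dox 3 and -0.046 without plus-dox 2. With each tumor left out, Vim lay at -0.038 to 0.47, the lowest without plus-dox 2. The distance between groups was 0.55 to 0.77 with each tumor left out.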

Other observations

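Other cell types left traces in the bulk tumors without separating the groups. Mast cell and basophil markers summed to 27.5 to 99.8 RPKM in no-dox and 30.1 to 137.8 RPKM in plus-dox tumors, dendritic cell markers to 13.0 to 20.1 and 12.0 to 18.9 RPKM, and adipocyte markers to 40.8 to 1172 and 46.4 to 743 RPKM. Acinar markers summed to 58.4 to 116.8 and 6.79 to 74.3 RPKM, nearly all of it Cela1, and 4 of that list (Cela2a, Amy2a5, Cel and Ptf1a) were at 0 in all 8 tumors. B and plasma cell markers summed to at most 1.70 RPKM, eosinophil markers to at most 7.68 RPKM and red blood cell markers to at most 4.89 RPKM.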
